A study of Mus musculus with 24 samples.

Results

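The integrins described here are 10 genes of vascular and mesenchymal cells, 7 that encode alpha chains (Itga1, Itga2, Itga3, Itga5, Itga6, Itga9 and Itgav) and 3 that encode beta chains (Itgb1, Itgb3 and Itgb4). They were taken by name as a fixed list from 22282 genes measured by RNA sequencing, with no cut on their values. The list was drawn up with earlier results of these data known. Each of the 10 was found, and each passed the filter of a mean of at least 1 FPKM over the 24 libraries, as did 14964 genes in all. FPKM are fragments per kilobase of transcript, scaled to the size of the library, a level that can be compared between genes of different length. Integrins are heterodimers of an alpha and a beta chain that span the plasma membrane and tie the extracellular matrix to the actin cytoskeleton. The alpha chain largely sets the ligand: some dimers bind collagens, some laminins of the basement membrane, and others the short RGD motif of fibronectin and vitronectin. In endothelium they anchor the cell to its basement membrane, and the fibronectin receptor and the vitronectin receptors are well known for their part in the growth of new vessels.

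The study asked whether non-vascular amniotic cells can be converted to endothelial cells (ECs), and how constitutive Akt signalling and the transcription factor Sox17 change the converted cells. Mouse amniotic cells (MACs) of mid-gestation C57BL/6J embryos were grown in amniotic cell medium as mixed, unsorted cultures. RACVECs were MACs that had received lentiviral Etv2, Erg and Fli1, 3 Ets transcription factors, and were then kept in EC medium with an inhibitor of TGF-β signalling on fibronectin-coated plastic. The effect of the factors, the medium, the inhibitor and the fibronectin coat therefore cannot be told apart. Akt-MACs and Akt-RACVECs also carried a lentivirus for myristoylated Akt1, which is constitutively active, and Sox17-RACVECs were RACVECs with a lentivirus for Sox17 after selection with puromycin. Akt-LECs and Akt-liver ECs were ECs of mouse lung and liver that carried the same Akt1 virus and were expanded in culture, in EC medium. The paper describes the lung ECs as adult. LSECs were liver ECs sorted straight from the animal, with neither virus nor culture, so that in any comparison with LSECs the Akt1 virus, the culture and the way of purification cannot be told apart. Each of the 8 groups had 3 libraries, and the replicates of MACs were separate isolates.

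The summed FPKM of a library ranged from 1689486 to 2317294, and 0 pairs of libraries held identical values. Read numbers are not used here and the depth of the libraries is unknown, so that a gene listed at 0 FPKM may be absent, unread or a failed estimate. The summed FPKM of 6 endothelial markers was 8.11 to 26.5 in MACs, 1266 to 2529 in RACVECs and 9743 to 14002 in Akt-RACVECs. Several libraries stood apart from their group. Of the introduced factors, Etv2 was 301 to 860 FPKM and Fli1 178 to 257 in RACVECs, but Erg was only 3.91, 13.8 and 0.9, against 395, 1002 and 418 in Akt-RACVECs. Akt1 levels did not separate the libraries with the Akt1 virus from those without: Akt1 had 848 to 1279 FPKM in Akt-MACs, 872 to 1281 in Akt-RACVECs and 798 to 1266 in Akt-LECs, but 892, 559 and 656 in Akt-liver ECs, the last 2 within the 551 to 694 of MACs and RACVECs, and 884 to 1323 in Sox17-RACVECs, which had no Akt1 virus. The library labelled Sox17-RACVEC 2 had 0 FPKM of Etv2, against 458 and 378 in Sox17-RACVEC 1 and 3, and had 387 FPKM of Erg, against 4.49 and 0. Its endothelial marker sum was 12739, against 3614 and 3666, and the sum of 6 mesenchymal and smooth muscle markers was 11.8, against 1038 and 2152. It goes against its label, and the results that rest on it are given with and without it. Akt-MAC 2 and 3 held macrophage and leukocyte markers, with sums of 8064 and 26697 FPKM over 4 genes against 782 in Akt-MAC 1 and at most 14.7 in MACs. Akt-LEC 1 and Akt-liver EC 1 held mesenchymal markers, with sums of 2894 and 1872 against at most 95.4 in the other 4 libraries of cultured ECs. They also held macrophage and leukocyte markers, with sums of 1325 and 868 against at most 18.6 in those 4. Sox17-RACVEC 1 had a macrophage and leukocyte sum of 916. The 3 LSEC libraries held markers of hepatocytes, with sums of 1983 to 7806 FPKM over 5 genes, and of macrophages, with 4388 to 6872. The sum of 7 epithelial markers was highest in Akt-liver EC 1, with 1550, and RACVEC 3, with 1177, and that of 5 platelet markers lay between 11.2 and 713. MAC 3 was the highest of the MACs for 8 of the 10 integrins. The part of these other cells in the results below was not tested beyond leaving the libraries out. In bulk RNA, fewer cells of a type and less RNA per cell cannot be told apart.

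Of the members whose level rose in converted cells, those with an entry in the sequence table, Itga3 and Itga5, are shown by the 250 bases before their transcription start, because the introduced Etv2, Erg and Fli1 belong to the Ets family, whose factors bind DNA around the letters GGAA. The sequences are from RefSeq, with the build GRCm38.p6, and were found for 7 of the 10 genes, with none for Itga6, Itgb3 and Itgb4. Itga3 has 2 starts in the table, of which the one farther upstream is shown. Both sequences are written 5′ to 3′ on the minus strand of the chromosome, and capitals mark GGAA or its reverse complement TTCC.
Itga3, chr11:95076715-95076964: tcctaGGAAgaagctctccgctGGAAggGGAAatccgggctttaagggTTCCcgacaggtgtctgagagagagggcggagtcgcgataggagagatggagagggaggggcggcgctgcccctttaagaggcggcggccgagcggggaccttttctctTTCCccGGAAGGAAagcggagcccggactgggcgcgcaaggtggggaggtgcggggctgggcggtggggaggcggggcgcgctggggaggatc
Itga5, chr15:103366792-103367041: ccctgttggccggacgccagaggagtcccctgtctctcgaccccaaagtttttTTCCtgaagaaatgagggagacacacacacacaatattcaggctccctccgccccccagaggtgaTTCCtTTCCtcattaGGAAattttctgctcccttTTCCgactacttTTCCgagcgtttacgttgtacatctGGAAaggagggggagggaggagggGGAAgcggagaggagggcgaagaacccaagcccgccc
GGAA or TTCC stood 7 times in this window of Itga3 and 8 times in that of Itga5, and was found in each of the 7 genes. As 93.4% of the 32851 windows in the table hold it, its presence is the rule for any gene. The longer form CCGGAA, which contains GGAA and was searched with TTCCGG, is held by 12% of the windows and among the 7 genes by Itga3 alone. It stood only in the Itga3 window shown. The window of the other Itga3 start held 0 of it and 3 of GGAA or TTCC. ACAAT, with its reverse complement ATTGT, is the core that Sox factors bind, was found in 27.7% of the windows, and among the 7 genes in Itga5 and Itga9. These are matches of letters and no measure of binding.

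Itgb1, the beta chain shared by most alpha chains, had the highest level of the 10 genes in every library. It lies on chromosome 8 at 131209554 to 131257100 on the plus strand (mm9). Its lowest level was 1223 FPKM, in Akt-liver EC 3, and its highest was 3104, in Akt-RACVEC 3. Its group means lay between 1623 ± 184 (SD, n = 3) in RACVECs and 2789 ± 376 in Akt-RACVECs, and each neighbour in the order of the 8 means overlapped with the next. Of 11 comparisons, none called Itgb1, and its log2 fold change stayed between -0.51 and 0.78. By contrast the medians of the alpha genes over the 24 libraries ran from 9.59 FPKM for Itga2 to 347 for Itga5.

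**Figure D1:**
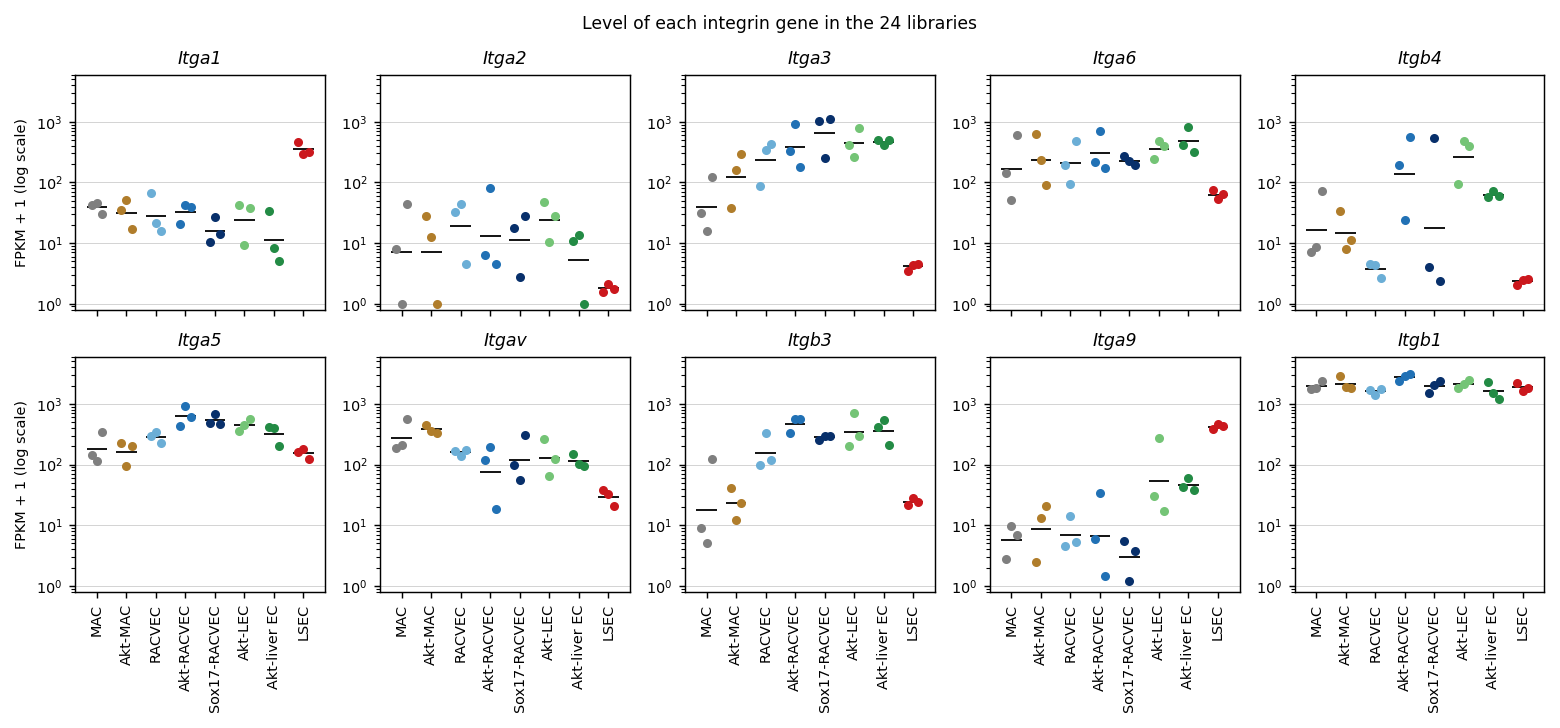
Level of each of the 10 integrin genes, as FPKM + 1 on a log axis, against the 8 groups, where points are the 3 libraries of a group and bars their mean on the log scale. Itgb1 lies above 1000 FPKM in each of the 24 libraries, whereas Itga1 and Itga9 are highest in LSECs, and Itga3, Itgb3 and Itgb4 are lowest or near their lowest there.

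Itga1 and Itga2 encode alpha chains that pair with the Itgb1 chain to bind collagens, and are neighbours on chromosome 13, at 115748287 to 115892172 and 115626124 to 115722249 on the minus strand (mm9). Itga1 was highest in the uncultured ECs, with 463, 298 and 317 FPKM in the LSEC libraries, against 32.2, 7.37 and 4 in Akt-liver ECs. In MACs it had 41.7, 44.1 and 29.1 FPKM and in RACVECs 65.1, 20.1 and 14.6. The LSECs lay far above every other library, whose highest was 65.1 FPKM in RACVEC 1, and the other 7 groups overlapped in order of their means. Itga2 was low and uneven, from 0 FPKM in MAC 2, Akt-MAC 3 and Akt-liver EC 3 to 80.3 in Akt-RACVEC 2. All neighbouring groups overlapped for Itga2, and it was called in none of the 11 comparisons.

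Itga3 and Itga6 encode the alpha chains of laminin receptors. Itga3 lies on chromosome 11 at 94905788 to 94938115 on the minus strand and Itga6 on chromosome 2 at 71583673 to 71696473 on the plus strand. Itga3 had 30.1, 14.8 and 120 FPKM in MACs and 37.3, 160 and 298 in Akt-MACs. It had 85.3, 345 and 426 FPKM in RACVECs, 333, 922 and 178 in Akt-RACVECs and 1044, 248 and 1107 in Sox17-RACVECs. MACs and RACVECs overlapped only through MAC 3 and RACVEC 1. The gene had 418, 262 and 791 FPKM in the lung ECs (Akt-LECs), 494, 405 and 499 in Akt-liver ECs and 2.46, 3.4 and 3.55 in LSECs. LSECs were below every cultured cell of any kind, and no library of cultured ECs overlapped with the MACs. Itga6 had 144, 50.4 and 608 FPKM in MACs and 195, 93.8 and 487 in RACVECs, a wide and overlapping spread. In LSECs it had 73, 52.1 and 62.8 FPKM, below the 410, 823 and 314 of Akt-liver ECs without overlap.

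Itgb4 encodes the beta chain that pairs with the Itga6 chain in hemidesmosomes and links laminin to intermediate filaments. It lies on chromosome 11 at 115836023 to 115869726 on the plus strand. Of the 3 beta genes it had the highest ratio of the top to the lowest library, with 3.51, 3.28 and 1.65 FPKM in RACVECs and 191, 22.8 and 567 in Akt-RACVECs. The Akt-RACVEC libraries lay above the RACVECs without overlap but differed widely among themselves. In Sox17-RACVECs the gene had 3.06, 540 and 1.41 FPKM, so that the library labelled Sox17-RACVEC 2 stood with Akt-RACVECs and cultured lung ECs, and the other 2 with RACVECs. MACs had 6.15, 7.47 and 70.3 FPKM and Akt-MACs 32.8, 6.89 and 10.3. Akt-LECs had 94.6, 472 and 400, Akt-liver ECs 56.1, 70.5 and 59.1 and LSECs 1.06, 1.49 and 1.59 FPKM. With all libraries, LSECs were the lowest group and RACVECs the next, without overlap between neighbours in the order of means. Without the library labelled Sox17-RACVEC 2, Sox17-RACVECs had a mean of 2.23 FPKM (n = 2), between the 2.81 of RACVECs and the 1.38 of LSECs, and overlapped with both.

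Itga5, Itgav and Itgb3 encode the chains of the RGD receptors: the Itga5 chain with that of Itgb1 is the main fibronectin receptor, and the Itgav chain with that of Itgb3 the classical vitronectin receptor. They lie on chromosome 15 at 103174720 to 103197194 on the minus strand, on chromosome 2 at 83564554 to 83647073 on the plus strand, and on chromosome 11 at 104469370 to 104531790 on the plus strand. Itga5 had 140, 113 and 346 FPKM in MACs and 222, 93.4 and 203 in Akt-MACs. It had 291, 348 and 222 FPKM in RACVECs, 433, 917 and 595 in Akt-RACVECs and 479, 673 and 468 in Sox17-RACVECs. Akt-RACVECs and Sox17-RACVECs each lay above the RACVECs and above both unconverted groups without overlap, whereas RACVECs overlapped with MACs through MAC 3. Akt-LECs had 357, 442 and 554 FPKM, Akt-liver ECs 414, 401 and 203 and LSECs 157, 177 and 123.

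Itgb3 was low in unconverted amniotic cells and high in converted cells. It had 7.97, 4.09 and 122 FPKM in MACs and 39.7, 11.4 and 22.5 in Akt-MACs. It had 96.2, 326 and 118 FPKM in RACVECs, 331, 564 and 562 in Akt-RACVECs and 254, 294 and 291 in Sox17-RACVECs. MAC 3 was the only unconverted library within the range of the converted ones, which it exceeded at RACVEC 1 and 3. Akt-LECs had 201, 705 and 290 FPKM and Akt-liver ECs 413, 535 and 208, against 20.7, 26.6 and 23.4 in LSECs. Itgav ran the other way: 183, 210 and 552 FPKM in MACs and 455, 360 and 333 in Akt-MACs, against 168, 138 and 170 in RACVECs. It had 116, 195 and 17.4 FPKM in Akt-RACVECs, 97.3, 55.1 and 307 in Sox17-RACVECs and 36.3, 31.1 and 19.4 in LSECs. No RACVEC library reached the MACs, while the spread within Akt-RACVECs and Sox17-RACVECs was wide.

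Itga9 encodes the alpha chain of a receptor for tenascin C and several other matrix proteins, and is known for its part in lymphatic endothelium. It lies on chromosome 9 at 118515808 to 118810121 on the plus strand. It had 378, 458 and 429 FPKM in LSECs, against 41, 59.5 and 37.6 in Akt-liver ECs and 29.8, 274 and 16.4 in Akt-LECs. In MACs it had 1.79, 8.61 and 5.92 FPKM and in RACVECs 3.56, 13 and 4.37. LSECs were highest without overlap, and all 3 Akt-liver EC libraries lay above every amniotic library, converted or not. The gene has 2 RefSeq transcripts in the data, as has Itgb4, while the other 8 members have 1 each. The second Itga9 transcript, NM_001113514, had 79.7, 154 and 95.8 FPKM in LSECs, or 21.1% to 33.6% of the gene, and at most 5.87 FPKM in any other library. How Cufflinks divided reads that both transcripts share was not tested.

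Differences between groups were tested two-sided by limma, on log2(FPKM + 1) of all 24 libraries together, with Benjamini-Hochberg adjustment over the 14964 genes. Genes counted as called when the adjusted p was under 0.05 and the log2 fold change beyond 1 in either direction, and only these are said to have risen or fallen. Log2 fold changes on this scale understate the change of low genes. Of 110 member values over the 11 comparisons, 18 were called. Where several comparisons share a group, such as MACs or RACVECs, their values are not independent of each other.

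Conversion was followed first in RACVECs against MACs. Itgb3 rose, with a log2 fold change of 3.13 (SE 0.82, adjusted p = 0.0449), or 8.75-fold on the FPKM + 1 scale. It was the 1 member called of 10, where 2.71% of all genes tested were called in this comparison. Itga3 had the next largest value, a log2 fold change of 2.58 (SE 0.84, adjusted p = 0.105), and Itga5 had 0.67 (SE 0.41, adjusted p = 0.375). Itgb4 had a log2 fold change of -2.13 (SE 1.49, adjusted p = 0.453) and Itgav -0.81 (SE 0.72, adjusted p = 0.578). The call of Itgb3 was lost without MAC 1, MAC 2, RACVEC 1, RACVEC 2 or RACVEC 3, with log2 fold changes between 2.23 and 4.53 over the 6 libraries left out in turn. It was also lost when only these 2 groups were fitted (adjusted p = 0.344), with a pseudocount of 10 (adjusted p = 0.0615), and by the criterion of the study's methods.

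With the 9 libraries of RACVECs, Akt-RACVECs and Sox17-RACVECs set against the 6 of MACs and Akt-MACs, 3 members rose and 1 fell. Itgb3 rose with a log2 fold change of 3.77 (SE 0.53, adjusted p = 5.98e-05), Itga3 by 2.49 (SE 0.54, adjusted p = 0.00216) and Itga5 by 1.42 (SE 0.26, adjusted p = 0.000618). Itgav fell, with a log2 fold change of -1.53 (SE 0.46, adjusted p = 0.0158). These are 4 of 10 members, where 21.5% of all genes tested were called, and the median over the members was 0.36 against -0.06 over all genes tested. The groups include RACVECs and MACs, so this comparison is no second test of the first. Akt-RACVECs and Sox17-RACVECs were made from RACVECs, and the labels do not say which libraries share an isolate. The fit takes the 9 and 6 libraries as independent, so its p-values may be too small. Itga1, Itga2, Itga6, Itga9, Itgb1 and Itgb4 were not called. Part of the converted libraries also carry Akt or Sox17, so conversion cannot be told apart from them here. Itga5 had 0.67 in RACVECs against MACs (adjusted p = 0.375, limma). It had 1.13 in Akt-RACVECs and 0.91 in Sox17-RACVECs, each against RACVECs, and was called in none of these. The part of Akt and Sox17 in the pooled values was not tested. Without the library labelled Sox17-RACVEC 2 the same 4 members were called, with log2 fold changes of 3.75 for Itgb3, 2.72 for Itga3, 1.36 for Itga5 and -1.35 for Itgav. Without Akt-MAC 2 and 3, which leaves 1 Akt-MAC library and assumes that it varies like the other groups, Itgb3 (3.35), Itga3 (3.33) and Itga5 (1.19) were still called, whereas Itgav had -1.66 with an adjusted p of 0.0681 by limma, and its call was also lost without MAC 3.

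**Figure D2:**
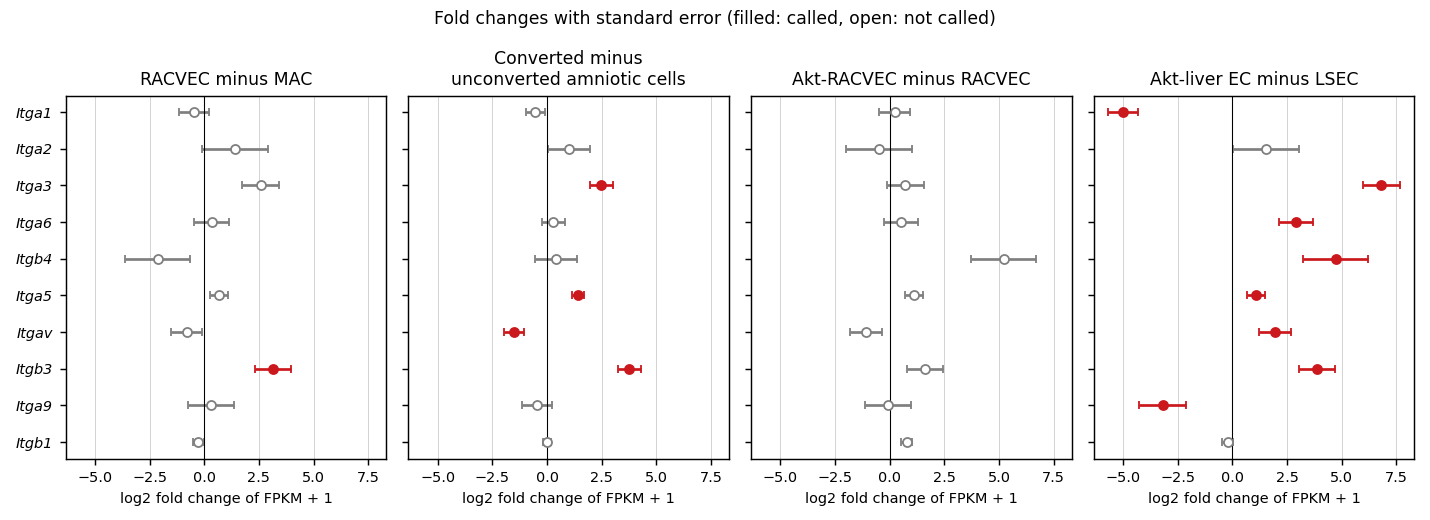
Log2 fold change of FPKM + 1 (x axis) with its standard error for each of the 10 genes (rows) in 4 comparisons, filled where called by limma and open where not. Only Itgb3 is filled for RACVECs against MACs, 4 genes are filled for converted against unconverted amniotic cells, none for Akt-RACVECs against RACVECs and 8 for Akt-liver ECs against LSECs.

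Among the partners of these chains, the ratio of Itgb3 to Itgav in FPKM joined both changes. It was 0.0436, 0.0195 and 0.222 in MACs and 0.0871, 0.0316 and 0.0678 in Akt-MACs. It was 0.572, 2.37 and 0.693 in RACVECs, 2.85, 2.9 and 32.4 in Akt-RACVECs and 2.62, 5.34 and 0.948 in Sox17-RACVECs. The unconverted libraries thus lay below every converted one, and Akt-RACVEC 3, with the highest ratio, had 17.4 FPKM of Itgav. The ratio of Itgb4 to Itga6 was 0.018, 0.035 and 0.00339 in RACVECs and 0.391, 0.998 and 1.01 in Akt-LECs. It reached 3.3 in Akt-RACVEC 3 and 2.41 in the library labelled Sox17-RACVEC 2, so that only these and Akt-LEC 3 held more Itgb4 than Itga6. The ratios are a description of transcript levels and carry no test.

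**Figure D3:**
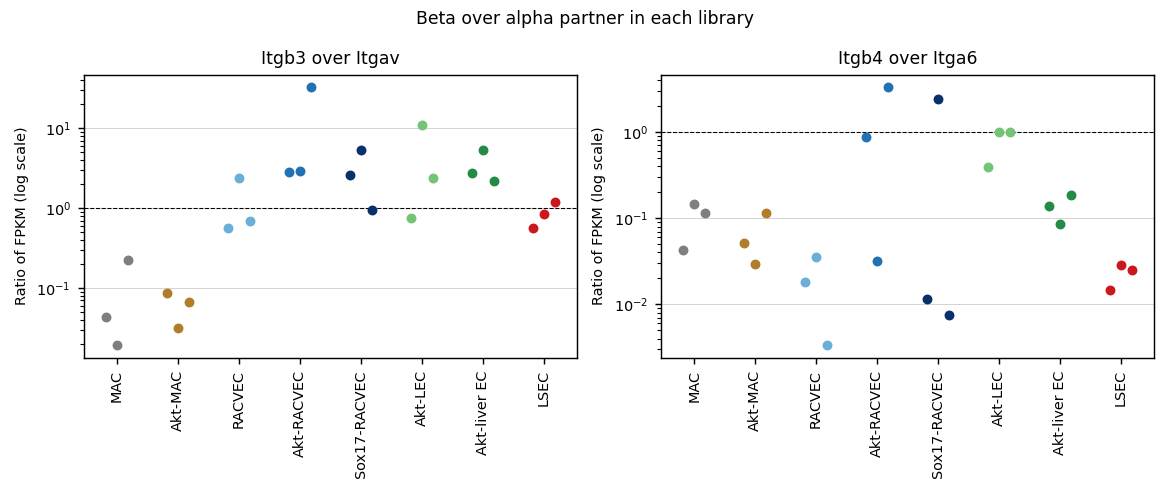
Ratio of the FPKM of Itgb3 to Itgav (left) and of Itgb4 to Itga6 (right) on a log axis against the 8 groups, where points are libraries and the dashed line marks equal levels. For Itgb3 over Itgav the 6 unconverted amniotic libraries lie at or below 0.222 and the 9 converted ones at or above 0.572.

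Shares of the summed FPKM of the 7 alpha genes described the balance of alpha chains in each group. Itgav held 37.8% ± 8.47 (SD, n = 3) of the sum in MACs and 15.5% ± 3.9 in RACVECs. Itga3 held 5.31% ± 1.85 in MACs, 17% ± 14.2 in Akt-MACs and 25.6% ± 13.4 in RACVECs. It held 42.3% ± 19.2 in Sox17-RACVECs, where the library labelled Sox17-RACVEC 2 had 20.2% and the other 2 had 54.4% and 52.4%. Itga5 held between 14.8% ± 2.3 in LSECs and 43% ± 14.4 in Akt-RACVECs. In LSECs the collagen receptor chain Itga1 had 34.7% ± 6.41 and Itga9 41.3% ± 6.27, so that both together made up most of the sum. Over all integrin alpha genes, the shares in LSECs were 23.1% ± 3.76 for Itga1 and 27.6% ± 4.7 for Itga9. These genes include Itga8, with 411, 276 and 404 FPKM in LSECs, and those of leukocytes, such as Itgal, with 101, 114 and 71.2. The lowest mean share of Itga5 was then that of Akt-MACs, 8.38% ± 2.27, rather than that of LSECs, 9.94% ± 1.95. The summed FPKM itself was 897 ± 700 in MACs, 1056 ± 248 in RACVECs and 1029 ± 77 in LSECs, and these groups overlapped.

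**Figure D4:**
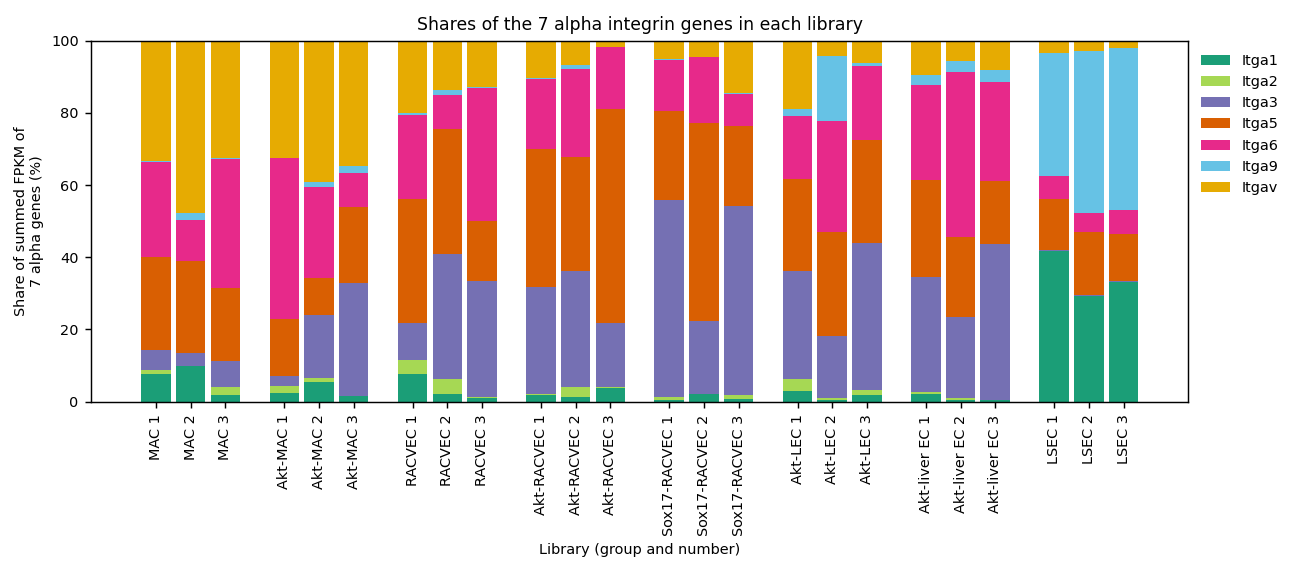
Share (%) of each of the 7 alpha genes in their summed FPKM, stacked to 100%, for each of the 24 libraries. Itgav has its widest mean share in MACs and Akt-MACs, and Itga1 and Itga9 fill most of the LSEC bars. Itga3 is wider in each converted and cultured EC library than in any MAC library. In Akt-MAC 2 and 3 its share, 17.4% and 31.1%, exceeds the 10.1% of RACVEC 1.

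Constitutive Akt in converted cells was read from Akt-RACVECs against RACVECs. Itgb4 was higher in each Akt-RACVEC library than in any RACVEC library, with a log2 fold change of 5.21 (SE 1.49, adjusted p = 0.104), and did not pass the adjustment. Itga5 had a log2 fold change of 1.13 (SE 0.41, adjusted p = 0.184), Itgb1 0.78 (SE 0.26, adjusted p = 0.153) and Itgb3 1.60 (SE 0.82, adjusted p = 0.347), in each case with every Akt-RACVEC library above every RACVEC library. How many of all genes separate in this way was not counted, so the separation is only a description. Limma called 0 of the 10 members, where 0.261% of all genes tested were called. At an unadjusted p below 0.05 there were 3, namely Itga5, Itgb1 and Itgb4, where 15.9% of all genes had such a p, and the criterion of the study's methods called 1, Itgb3. Erg moved with this comparison, with a log2 fold change of 6.73 (SE 1.31, adjusted p = 0.0363), while Akt1 had 0.64 (SE 0.23, adjusted p = 0.181), and the part of Erg in the integrin values was not tested. In Akt-MACs against MACs, 0 of 10 members were called by limma, where 2.81% of all genes were, with 0 at an unadjusted p below 0.05 and 0 by the criterion of the study's methods. Its largest value was that of Itga3, a log2 fold change of 1.65 (SE 0.84, adjusted p = 0.404), for which the sum of leukocyte markers moved with the level: Akt-MAC 3 was highest in both and Akt-MAC 1 lowest in both, and their part in it was not tested. The difference of the Akt effects between RACVECs and MACs was called by limma for 0 of 10 members, where 0.1% of all genes were called, with 2 at an unadjusted p below 0.05, as had 12.1% of all genes. These were Itgb4, with a log2 fold change of 5.38 (SE 2.10, adjusted p = 0.296), and Itga5, with 1.25 (SE 0.57, adjusted p = 0.393). Without Akt-MAC 2 and 3 the values of this difference were 4.16 for Itgb4 and 0.80 for Itga5.

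For enforced Sox17, Sox17-RACVECs were set against the same RACVECs. Itga5 had a log2 fold change of 0.91 (SE 0.41, adjusted p = 0.708) and Itga3 1.50 (SE 0.84, adjusted p = 0.823). Without the library labelled Sox17-RACVEC 2 these values were 0.74 and 2.20. Limma called 0 of 10 members, where 0.00668% of all genes tested were called, with 1 member, Itga5, at an unadjusted p below 0.05, as had 6.62% of all genes, and 0 by the criterion of the study's methods. Sox17 itself had 5.09, 40.1 and 200 FPKM in Sox17-RACVECs and 0 in each RACVEC library. Akt-RACVECs had 12, 83.5 and 82.2 FPKM of Sox17, each above the 5.09 of Sox17-RACVEC 1. Itgb4 had a log2 fold change of 2.23 (SE 1.49, adjusted p = 0.856) with the library labelled Sox17-RACVEC 2 and -0.25 without it. In the direct comparison of Sox17-RACVECs with Akt-RACVECs, limma called 0 of 10 members and 0% of all genes, of which 1149 had an unadjusted p below 0.05, as had 0 of the members. The criterion of the study's methods also called 0 members. Itgb4 had the largest value there, a log2 fold change of -2.98 (SE 1.49, adjusted p = 0.668). Without the library labelled Sox17-RACVEC 2 it was lower in Sox17-RACVECs, with a log2 fold change of -5.46 (limma, adjusted p = 0.0137). The share of all genes called in that fit is not given here, so this call cannot be weighed against it. As both groups held Sox17, this does not compare cells with and without Sox17.

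Cultured ECs, for which Akt-LECs and Akt-liver ECs were averaged, served as the reference for the converted cells. Compared with them, MACs were lower in 4 of 10 members, where 14.8% of all genes tested were called. These were Itgb3, with a log2 fold change of -4.31 (SE 0.71, adjusted p = 0.000559), Itga3, with -3.54 (SE 0.73, adjusted p = 0.00293), Itga9, with -3.11 (SE 0.92, adjusted p = 0.0238), and Itga5, with -1.10 (SE 0.35, adjusted p = 0.0352). RACVECs were lower in 1 of 10 members, Itgb4, with a log2 fold change of -5.11 (SE 1.29, adjusted p = 0.0459), where 1.88% of all genes were called. For Itga9 the RACVECs had a log2 fold change of -2.82 (SE 0.92, adjusted p = 0.125), and for Itgb3 -1.18 (SE 0.71, adjusted p = 0.453). Both comparisons share the cultured ECs, which carry the Akt1 virus while MACs and RACVECs do not. MACs and RACVECs also derive from embryos, whereas the lung ECs were adult, and MACs were grown in another medium. These differences cannot be told apart. The call of Itga5 in MACs was lost without any of MAC 1, MAC 2, Akt-liver EC 1, Akt-liver EC 2, Akt-LEC 2 and Akt-LEC 3, that of Itga9 without MAC 1 or MAC 3, and that of Itgb4 in RACVECs in 7 of 9 such fits, all but those without Akt-LEC 1 or Akt-liver EC 1. Without MAC 3, Itga6 was lower in MACs, with a log2 fold change of -2.25. Without Akt-LEC 1 and Akt-liver EC 1 together, Itga1 was higher in MACs, with a log2 fold change of 1.82 (limma, adjusted p = 0.0286), and Itgb4 remained lower in RACVECs, with -5.51. Itga5 then had -1.09 in MACs, with an adjusted p of 0.0584 by limma, and lost its call.

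Akt-LECs against Akt-liver ECs asked whether the organ of origin shows in culture. Limma called 0 of 10 members, where 0.0134% of all genes tested were called, with 0 members at an unadjusted p below 0.05 and 0 by the criterion of the study's methods. Itga2 had a log2 fold change of 2.19 (SE 1.51, adjusted p = 1) and Itgb4 2.07 (SE 1.49, adjusted p = 1). For Itgb4 every Akt-LEC library lay above every Akt-liver EC library, which is only a description, as the share of all genes that separate so was not counted. The standard errors leave room for differences of severalfold, so equal levels are not shown.

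Liver ECs in culture against those straight from the animal gave the most called members. In Akt-liver ECs against LSECs, 6 members were higher and 2 lower, 8 of 10, where 27% of all genes tested were called. Of the higher members the largest difference was that of Itga3, with a log2 fold change of 6.82 (SE 0.84, adjusted p = 5.72e-06), followed by Itgb4, with 4.72 (SE 1.49, adjusted p = 0.0195), and Itgb3, with 3.88 (SE 0.82, adjusted p = 0.00136). Itga6 had a log2 fold change of 2.91 (SE 0.79, adjusted p = 0.00828), Itgav 1.96 (SE 0.72, adjusted p = 0.0402) and Itga5 1.09 (SE 0.41, adjusted p = 0.0442). Itga1 and Itga9 were lower in culture, with a log2 fold change of -4.99 (SE 0.69, adjusted p = 2.3e-05) and -3.19 (SE 1.06, adjusted p = 0.026). For each of these 8 genes the 3 libraries of a group lay on one side of the 3 of the other. This adds nothing to the calls, as the 8 were picked by the call on the same values. The share of all genes that separate so was not counted. Without Akt-LEC 1 and Akt-liver EC 1, calls were kept by Itga1 (-5.77), Itga3 (6.78), Itga6 (3.02), Itgb3 (3.77) and Itgb4 (4.79) and lost by Itga9, Itgav and Itga5, whose log2 fold changes stayed at -3.12, 1.76 and 0.91 (limma, adjusted p = 0.066, 0.102 and 0.148). Those 3 calls were also the ones lost in most fits without 1 library: each was lost without LSEC 1, LSEC 2, LSEC 3 or Akt-liver EC 1, Itga5 and Itgav also without Akt-liver EC 2, and Itga9 and Itgav also without Akt-liver EC 3. The call of Itgb4 was lost without LSEC 1.

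The integrins outside the 10 are mostly those of leukocytes and muscle; of 16 on the list, 15 were in the data and 12 passed the filter. In Akt-MACs against MACs, 3 of the 12 rose, where 2.81% of all genes were called, and all 3 are leukocyte genes. Itgb2, the shared beta chain of leukocyte integrins, had a log2 fold change of 6.52 (SE 1.23, adjusted p = 0.00919). Itgam had 6.38 (SE 1.29, adjusted p = 0.0116) and Itgal 5.68 (SE 1.11, adjusted p = 0.0104). Itgb2 had 15.3, 332 and 851 FPKM in Akt-MACs and 1.78, 0 and 1.17 in MACs. It followed the sum of leukocyte markers across the Akt-MAC libraries, lowest in Akt-MAC 1 and highest in Akt-MAC 3. Without Akt-MAC 2 limma called 0 of the 12, and without Akt-MAC 2 and 3 together 0, with 3.16 for Itgb2, 3.11 for Itgam and 1.93 for Itgal. In converted against unconverted amniotic cells, 7 of the 12 fell and 0 rose, where 21.5% of all genes were called, 2259 of the 3213 lower. Itgb8, whose chain pairs with that of Itgav, had a log2 fold change of -4.15 (SE 0.62, adjusted p = 9.69e-05), and Itgb5, another partner of Itgav, -2.83 (SE 1.06, adjusted p = 0.0461). Itgal had a log2 fold change of -3.18 (SE 0.72, adjusted p = 0.00267), Itgam -3.16 (SE 0.83, adjusted p = 0.00738) and Itgb2 -2.90 (SE 0.79, adjusted p = 0.00889), which include the marked Akt-MAC libraries. Without Akt-MAC 2 and 3 only Itgb8 of the 7 was still called, with -4.87, beside Itgb7, while Itgal had -1.31, Itgam -1.53 and Itgb2 -1.23. Itga7, a laminin receptor chain of muscle, had a log2 fold change of -2.38 (SE 0.84, adjusted p = 0.0356), and Itga8 -2.08 (SE 0.66, adjusted p = 0.0209). Of the 15 fits without 1 library, Itgb5 lost its call in 11 and Itga7 in 9, and Itga8 lost it without MAC 2 or Akt-MAC 2. In MACs against cultured ECs, Itgb8 was higher, with a log2 fold change of 3.19 (SE 0.83, adjusted p = 0.0122), as was Itgad, with 2.34 (SE 0.78, adjusted p = 0.0415). These are 2 of the 12, or 16.7%, near the 14.8% of all genes called. Itgad had 33.1, 3.36 and 0 FPKM in MACs and at most 0.2 in cultured ECs, and its value was 0.99 without MAC 1 and 3.54 without MAC 3, with the call lost in 8 of 9 such fits, all but the one without MAC 3. Itgb8 lost its call there without MAC 1. Itga8 was lower in Akt-liver ECs than in LSECs, with a log2 fold change of -5.38 (SE 1.02, adjusted p = 0.000556), as were Itgal, with -4.76 (SE 1.11, adjusted p = 0.0029), and Itgb7, with -4.54 (SE 0.65, adjusted p = 3.16e-05), both known from leukocytes. These 3 are 25% of the 12 tested, where 27% of all genes were called, and without Akt-liver EC 1 the count was 7. That library held leukocyte markers, whose part in the count was not tested. In RACVECs against MACs, limma called 0 of the 12, where 2.71% of all genes were called. At an unadjusted p below 0.05 there was 1, as had 19.6% of all genes, and the criterion of the study's methods called 0.

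Of 24 genes for ligands, all tested, 7 were called in converted against unconverted amniotic cells, or 29.2%, near the 21.5% of all genes. The basement membrane collagens Col4a1 and Col4a2 rose, Col4a1 with a log2 fold change of 1.78 (SE 0.30, adjusted p = 0.000285), and 5 fell. The largest 4 changes were those of Spp1, which encodes osteopontin, with a log2 fold change of -7.27 (SE 1.64, adjusted p = 0.00265), periostin (Postn), with -6.41 (SE 1.25, adjusted p = 0.000939), Edil3, with -4.87 (SE 0.65, adjusted p = 4.02e-05), and Col1a1, with -4.17 (SE 1.46, adjusted p = 0.0336). Spp1 had 25048, 8304 and 13431 FPKM in MACs and 2097, 248 and 2269 in RACVECs. Col1a1 is also one of the mesenchymal markers, whose sum was 2227 to 5109 FPKM in MACs and 413 to 3035 in RACVECs. Its call was lost in 9 of the 15 fits without 1 library and without Akt-MAC 2 and 3, with -4.21. In RACVECs against MACs, limma called 0 of the 24, where 2.71% of all genes were called. At an unadjusted p below 0.05 there were 5, near the share of 19.6% of all genes, and the criterion of the study's methods called 1. In Akt-liver ECs against LSECs, 12 were called, 8 higher and 4 lower, or 50% against 27% of all genes. Tnc, which encodes tenascin C, was higher with a log2 fold change of 10.86 (SE 1.38, adjusted p = 7.94e-06) and fibronectin (Fn1) with 7.85 (SE 1.33, adjusted p = 0.000195). Fgg, a fibrinogen chain, was lower with a log2 fold change of -7.38 (SE 0.42, adjusted p = 1.22e-10), and Thbs1, which encodes thrombospondin, was higher with 6.87 (SE 1.81, adjusted p = 0.0067). The 4 lower genes, Fga, Fgb, Fgg and Vtn, are made by hepatocytes, whose markers were present in the LSECs and at most 11.9 FPKM in sum in Akt-liver ECs. Fgg and Vtn are listed at 0 in all 3 Akt-liver EC libraries, and Tnc is at 0 in LSEC 1 and 2, so that their log2 values depend on the pseudocount.

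Of 23 genes for adaptors inside the cell, 22 were tested and 4 were called in converted against unconverted cells, or 18.2%, below the 21.5% of all genes. Parvb, which encodes beta-parvin, rose with a log2 fold change of 1.23 (SE 0.27, adjusted p = 0.00213) and tensin 2 (Tns2) with 1.65 (SE 0.31, adjusted p = 0.000616). Talin 2 (Tln2) fell, with a log2 fold change of -3.49 (SE 0.54, adjusted p = 0.000126), as did tensin 3 (Tns3), with -1.75 (SE 0.52, adjusted p = 0.0141). Parvb lost its call without MAC 2, with 0.93, and Tns3 without Akt-MAC 2 and 3, with -1.55. In Akt-liver ECs against LSECs 8 were called, 5 higher and 3 lower, or 36.4% against 27% of all genes. The largest 4 changes were those of Fermt3, the kindlin of blood cells, with a log2 fold change of -4.24 (SE 1.14, adjusted p = 0.00767), the kinase Src, with 4.22 (SE 0.52, adjusted p = 5.87e-06), Tns2, with -1.84 (SE 0.47, adjusted p = 0.00562), and zyxin (Zyx), with 1.65 (SE 0.41, adjusted p = 0.00446). Fermt3 had 111, 124 and 72.8 FPKM in LSECs, which also held macrophage markers. Of 7 hemidesmosome and tetraspanin genes 4 were tested, and plectin (Plec), which links the Itgb4 chain to keratin, and dystonin (Dst) were higher in Akt-liver ECs, with a log2 fold change of 3.39 (SE 0.47, adjusted p = 2.29e-05) and 3.06 (SE 0.52, adjusted p = 0.000211). In RACVECs against MACs limma called 0 adaptors and 0 of the 4 hemidesmosome genes, where 2.71% of all genes were called. At an unadjusted p below 0.05 there were 3 adaptors, where 19.6% of all genes had such a p. The criterion of the study's methods called 2 adaptors. The median log2 fold change in Akt-liver ECs against LSECs was 1.76 over the 10 integrins, -2.20 over the 12 other integrins, 0.36 over the ligands, 0.60 over the adaptors and 1.38 over the hemidesmosome and tetraspanin genes, against 0.08 over all genes tested.

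Across the 24 libraries, the members that moved with one another were Itga5 and Itgb3, with a Pearson correlation of 0.90 of log2(FPKM + 1), Itga3 and Itgb3, with 0.73, and Itga3 and Itga5, with 0.69. Itga1 and Itga3 ran opposite, with -0.81. These describe libraries that share groups and are not independent. Among genes outside the 10, the most alike to Itgb3 was Cdc42bpb, with 0.92, then Selp, which encodes P-selectin, with 0.90. Itga5 was most like Cdk3, with 0.87, and Itga3 most like Raet1e and Nacc1, both with 0.93. Itgav was most like Slc39a6, with 0.93, and Itgb1 most like Sparc, with 0.82. Itga1 was most like Nrp1, a VEGF coreceptor gene, and Nqo2, both with 0.88. Itga9 was most like Il16, with 0.91, and Itga6 most like Crmp1 and Dst, both with 0.88. Itgb4 was most like Tll1 and Chn1, both with 0.89, and Itga2 most like Kdm4d, with 0.80.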

How the data were processed

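The authors sequenced poly(A) TruSeq libraries as paired 51 bp reads, mapped them with TopHat to mm9 and deposited FPKM, which Cufflinks computed per RefSeq transcript with upper-quartile scaling and bias correction; versions are not given in the sources used here. Of 27583 transcripts 26934 were joined to current symbols and summed per gene, and 649 without one were kept apart, which gave 22282 genes. Precision rests on the spread between 3 libraries, since read numbers are not used here.

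The limma version was 3.58.1 (R 4.3.3), with a variance trend and genes of a mean of at least 1 FPKM. On simulated data for RACVECs against MACs with 14964 genes, 59 of 100 genes changed by 1.5 on the log2 scale and 74 of 100 changed by 3 were recovered, with 12 false calls. The changed genes were drawn from those with a mean of at least 10 FPKM. Each gene had normal noise of the same spread in all groups, and no library was made to stand apart. These rates are therefore not the power of the test on the real libraries. The criterion of the study's methods compared averaged FPKM, with a log2 ratio beyond 1 and an unadjusted two-sided p under 0.05 without equal variances. The share of all genes that this criterion calls is not given here, so its counts cannot be weighed against that share. Tables and figures used Python 3.11.15, numpy 2.4.6, pandas 2.3.3, scipy 1.17.1 and matplotlib 3.10.9.

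Alternatives were other pseudocounts (0.1 and 10), other filters (none, or a mean of 10 FPKM), fits restricted to the compared groups without and with a replicate block, scaling by the median shift of a library, transcripts kept apart, the criterion, each library left out and, for shares, all integrin alpha genes as denominator. Leaving out the Akt-MAC, Akt-LEC and Akt-liver EC libraries that stood apart was added after seeing the data. Named genes are the 10 members, other integrins that were called, up to 4 called genes of largest change per list in 3 comparisons, the genes most correlated with each member, and transduced and marker genes. The members, lists and tests were chosen with earlier results of these data known.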

Additional observations from a re-analysis of the deposited data

How the results depend on the processing

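Of the 18 called values of members, 0 changed sign under any alternative. The number that lost the call was 1 with a pseudocount of 0.1, 4 with one of 10, 2 without a filter and 0 with a mean FPKM of at least 10. The count of members called in RACVECs against MACs, 1, was 0 with a pseudocount of 10, with only the groups compared, with the replicate block and by the criterion of the study's methods, and between 0 and 1 with each library left out. In Akt-RACVECs against RACVECs the criterion called 1. In MACs against cultured ECs the count of 4 was 2 with only the groups compared, 1 with the replicate block, and 2 to 4 with each library left out. In RACVECs against cultured ECs the count of 1 was 0 with a pseudocount of 10, without a filter and with transcripts kept apart, and 0 to 1 with each library left out. In Akt-liver ECs against LSECs the count of 8 was 5 by the criterion, 5 without Akt-LEC 1 and Akt-liver EC 1, and 4 to 6 with each library left out. In Sox17-RACVECs against Akt-RACVECs it was 0 to 1, and in converted against unconverted cells 3 to 4. The cause of these moves was not tested. Pairing by replicate number was not established: in none of the 7 pairs of groups did every number correlate above 0.1. With 3 libraries a group, this rule cannot show that no source was shared. The pair with the highest mean, Akt-LECs and Akt-liver ECs, had 0.571, 0.366 and -0.050, and its libraries with the number 1 share the mesenchymal markers. For Itgb3, RACVEC 1 and 2 had 96.2 and 326 FPKM by the labels used here. The paper's supplement lists these 2 values in the reverse order, so the RACVEC numbers are uncertain. The block also took the call of Itgav in converted cells (adjusted p = 0.0797, limma).

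With 3 libraries a group and no read counts, a change of low genes such as Itga2 cannot be told from a failed estimate, and a missed call does not show an equal level.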
